A study of Penaeus vannamei with 6 samples.

Results

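The gill transcriptome of juvenile whiteleg shrimp (Penaeus vannamei) kept in fresh water was compared with that of juveniles kept in seawater, over 8074 assembly components. A component is a set of assembled transcripts that the assembler joined, and it is the nearest thing to a gene in a transcriptome built without a genome. RPKM, a read count divided by transcript length and by the total reads of the library, was summed over all transcripts of a component. Components with a mean sum of at least 5 RPKM over the 2 fresh water and 2 seawater libraries were kept, 8074 of 321483. The kept components held 96.9% and 96.3% of the reads of the seawater libraries and 91.3% and 89.2% of those of the fresh water libraries. The libraries are called S1 and S2 for seawater, F1 and F2 for fresh water and B1 and B2 for brackish water. B1 and B2 took no part in the comparison, and their levels are given only beside it. All libraries are of whole gill from juveniles. The design text mentions triplicates, and 2 libraries per condition were analysed here. Neither the salinities nor whether a library held 1 animal or a pool is stated in the labels. P-values therefore measure the spread between libraries, which may be technical.

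The gill of a decapod crustacean is the main organ of ion exchange with the water. In dilute water the animal loses salt and its gill takes up sodium and chloride against the gradient, driven by ion pumps of the epithelium such as the sodium/potassium-transporting ATPase and the V-type proton ATPase and supplied with protons and bicarbonate by carbonic anhydrase. In seawater a penaeid shrimp keeps its blood more dilute than the medium, so the direction of transport differs between the conditions compared here. The question of the study was the response of the gill to the salinity of culture. The files pair the component IDs with no gene name, sequence or description, and 0 of the IDs matched the RefSeq gene table, so no component could be assigned to these pumps and the label gill could not be checked against marker genes. For that reason 2 components that rose and 2 that fell are named, and the others are described as sets.

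The libraries differed in depth and in breadth. Depth was 16500257 reads in S1, 33130083 in S2, 30152208 in F1 and 23195528 in F2. Reads fell on 44297 components in S1, 60373 in S2, 191257 in F1 and 198034 in F2. At an equal depth of 16500257 reads, 50096 components would be expected in S2, 156888 in F1 and 178814 in F2. F1 and F2 also spread their reads more evenly, with 243 and 385 components holding 50% of the reads against 138 in S1 and 122 in S2.

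On RPKM more components were called higher in fresh water than lower, and the 2 called sets differed in abundance. By limma with a trend on log2(summed RPKM + 1), 1939 components rose in fresh water and 314 fell at a Benjamini-Hochberg adjusted p under 0.05, which is 24% and 3.89% of those tested and 27.9% together. The components that rose were mostly of low level, with 9.38 RPKM as the median of their means, and 23 of them reached a mean of 100 RPKM. For those that fell this median was 31.2 RPKM, and 82 of the 314 reached 100 RPKM. Of the 1939 rises 1512 had passed the filter through fresh water only. The filter makes their fresh water mean the higher and holds their seawater mean under 5 RPKM. The balance of rises and falls also moved with the scaling, as given below. The median log2 fold change was 2.28 for the rises and -2.19 for the falls. In whole tissue, fewer cells of a type and less RNA per cell cannot be told apart.

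Sizes of change ran widely. The smallest called rise was a log2 fold change of 1.13 and the largest 7.05. Of the 1939 rises 482 were above 3 and 22 above 5 on the log2 scale. Of the 314 falls 74 were larger than 3 in size and 5 larger than 5, with 0.81 as the smallest and 6.22 as the largest size.

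The scale of the libraries moved the balance between rises and falls. Over all 8074 components the log2 fold change had a median of 0.84 on RPKM and of 0.11 after division by TMM factors, which centre the trimmed mean of the log ratios between libraries and were 0.680 for S1, 0.836 for S2, 1.23 for F1 and 1.43 for F2. With TMM factors limma called 1095 components higher and 731 lower, 13.6% and 9.05% of those tested. All 1095 were among the 1939, and 308 of the 731 were among the 314. On the recovered reads edgeR with TMM called 825 higher (10.2%) and 523 lower (6.48%), and DESeq2 called 1525 higher (18.9%) and 1702 lower (21.1%). Of all calls, 86.1% were higher on RPKM, 60.0% with TMM factors, 61.2% by edgeR and 47.3% by DESeq2. All 1939 rises lay above the shift of 0.84 and so were higher relative to the median component. This follows from the smallest called rise, 1.13, and is no further support. With TMM factors 844 of the 1939 were not called. The 423 components called lower with TMM factors alone are not counted as falls here.

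The count of calls rested on which libraries entered the fit. Leaving out S1 or S2 raised the 2253 calls to 4397 or 5660. Leaving out F1 or F2 lowered them to 236 or 106. A group left with 1 library adds nothing to the estimate of spread, so without a seawater library the spread came from F1 and F2 alone, and without a fresh water library from S1 and S2 alone. With B1 and B2 in the fit as a further group, 3 calls were made, 1 higher and 2 lower, at the same fold changes. The libraries of a group differed more in seawater than in fresh water. On log2(summed RPKM + 1) the median absolute difference between the libraries of a pair was 0.61 in seawater, 0.31 in fresh water and 1.75 in brackish water. Pearson's r over the 8074 components, which are not independent replicates, was 0.769 between the seawater libraries, 0.936 between the fresh water libraries and 0.687 between the brackish water libraries.

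**Figure D1:**
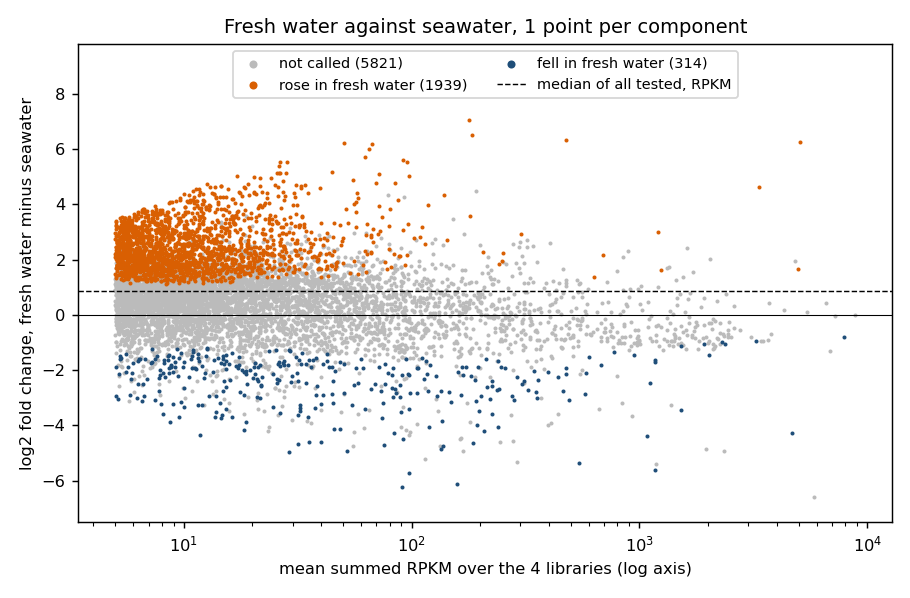
Each point is 1 of 8074 components, with its mean summed RPKM over the 4 libraries on a log x axis and its log2 fold change, fresh water minus seawater, on the y axis. Orange points rose (1939), blue points fell (314), grey points were not called, and the dashed line is the median of all at 0.84.

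The balance of rises and falls differed between bins of abundance. Among components of 5 to 10 RPKM, 1044 of 3207 rose and 61 fell, and the median log2 fold change of the bin was 1.11. Among those of 10 to 30 RPKM, 731 of 2825 rose and 95 fell, with a median of 0.95. Among those of 30 to 100 RPKM, 141 of 1245 rose and 76 fell, with a median of 0.44. Falls outnumbered rises from 100 RPKM upwards. There 18 rose and 68 fell of 660 components of 100 to 1000 RPKM, with a median of -0.17, and 5 rose and 14 fell of 137 components of 1000 RPKM or more, with a median of -0.69. With TMM factors the median was lower in every bin and turned sign in the bin of 30 to 100 RPKM, from 0.44 to -0.36. There 79 components were called higher and 170 lower, so the majority turned in that bin as well. The lower bins hold many components that passed the filter through fresh water only, whose mean RPKM is higher in fresh water by the filter.

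**Figure D2:**
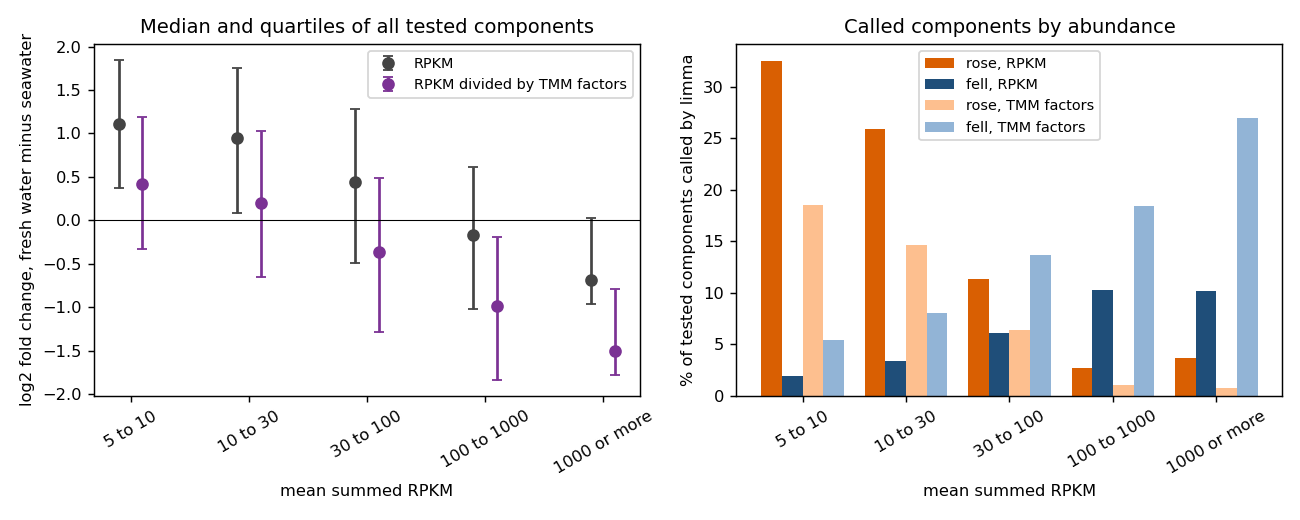
Left, the median and quartiles of the log2 fold change of all tested components in 5 bins of mean summed RPKM, on RPKM and with TMM factors. Right, the share of each bin called by limma, from 32.6% higher on RPKM at 5 to 10 RPKM to 10.2% lower at 1000 RPKM or more.

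Most components that rose had entered the test through fresh water. Of the 8074, 5201 had a mean of at least 5 RPKM in both groups, 2495 in fresh water only and 378 in seawater only. A component that passes through 1 group has to be higher in that group, so its sign is fixed by the filter. Of the 1939 rises 1512 were of the second class, and of the 314 falls 108 were of the last. Among the 5201 at or above 5 RPKM in both groups, 427 rose and 206 fell on RPKM. With TMM factors the majority in that class turned, with 124 called higher and 563 lower, and its median log2 fold change went from 0.44 to -0.32. Within this class, in the same order of bins, the median on RPKM was 0.36 over 944 components, 0.74 over 2257, 0.42 over 1205, -0.17 over 658 and -0.69 over 137. Here 8 rose and 1 fell at 5 to 10 RPKM, 281 rose and 58 fell at 10 to 30, and 117 rose and 65 fell at 30 to 100. At 100 to 1000 RPKM 16 rose and 68 fell, and at 1000 or more 5 rose and 14 fell. With TMM factors falls outnumbered rises in each of these bins, with 0 called higher and 59 lower at 5 to 10 RPKM and 63 and 187 at 10 to 30.

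The groups often did not overlap without a call. Both fresh water values lay above both seawater values in 4705 components, 58.3% of those tested, and below them in 1392, 17.2%. These counts were taken on RPKM without TMM factors, where the median log2 fold change was 0.84. With 2 libraries per group, values also lie apart often by order alone. All 1939 rises and all 314 falls were among these. A further 2766 and 1078 components had groups apart and were not called, and 1977 had overlapping groups.

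Few components were without reads in a whole group. Both seawater libraries held 0 reads in 23 tested components, of which 22 rose. Such a component passes the filter only with a fresh water mean of at least 10 RPKM, so the direction, the lowest level and the smallest bound of the set follow from the filter. Their fresh water means ran from 10.5 to 34.2 RPKM. Taking 3 reads over both seawater libraries as the limit that a count of 0 allows, these components were at least 34.4-fold higher in fresh water, with a median lower bound of 81.9-fold. Such limits cover counting error only. Of the 23, 20 had reads in B1 and 14 in B2. In the opposite direction 1 component had 0 reads in both fresh water libraries, at 12.1 RPKM on average in seawater, and it was not called.

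The component comp236753_c0 showed the largest rise. It consists of 1 transcript of 827 bases. Its level was 0.806 RPKM in S1 and 2.88 in S2, from 11 and 79 reads, and 285 RPKM in F1 and 428 in F2, from 7113 and 8216 reads. Both fresh water libraries were far above both seawater libraries, and the mean was 193-fold higher. Limma gave a log2 fold change of 7.05 (SE 0.53, adjusted p = 0.0222), and over the 13 alternatives that kept all 4 libraries the adjusted p ran from 1.60e-21 to 0.113, with the call lost in 2. Without F1 or F2 it was also lost (limma adjusted p = 0.0597 and 0.0795). B1, at 438 RPKM, stood with F1 and F2, and B2, at 1.47 RPKM, with S1 and S2. Relative to the median of all components its log2 fold change was 6.20 on RPKM and 6.30 with TMM factors.

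The component comp243666_c4 was the most abundant of those that rose and ranked 8 among all tested. Its level was 286 RPKM in S1, 57.9 in S2, 9617 in F1 and 10257 in F2. It took up 0.833% and 0.808% of all reads of F1 and F2, against 0.0288% and 0.00549% of S1 and S2. The mean was 57.8-fold higher, and limma gave a log2 fold change of 6.26 (SE 0.82, adjusted p = 0.0224), and over the 13 alternatives that kept all 4 libraries the adjusted p ran from 7.94e-05 to 0.0821, with the call lost in 2. Without F1 or F2 it was also lost (limma adjusted p = 0.120 and 0.164). It was also the 1 component called higher in the fit of all 6 libraries. B1 and B2 lay between the groups at 1121 and 1802 RPKM, and here they were close to each other. Both its transcripts were higher in fresh water. The transcript seq5, of 1063 bases, stood at 260 RPKM in S1, 47.2 in S2, 6606 in F1 and 5761 in F2. The transcript seq4, of 435 bases, stood at 25.6 RPKM in S1, 10.7 in S2, 3011 in F1 and 4495 in F2. A test of unequal change of these 2 transcripts did not pass (diffSplice adjusted p = 0.622).

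The component comp242928_c0 showed the largest fall among those called, from 281 RPKM in S1 and 78.8 in S2 to 2.74 in F1 and 0.0794 in F2. The last value is 1 read, against 55 reads in F1, 3571 in S1 and 1969 in S2. Every fresh water value was below every seawater value, while within each group the libraries were also far apart. Limma gave a log2 fold change of -6.22 (SE 0.91, adjusted p = 0.0240), and over the 13 alternatives that kept all 4 libraries the adjusted p ran from 3.64e-06 to 0.0821, with the call lost in 3. Without F1 or F2 it was also lost (limma adjusted p = 0.0868 and 0.165). It was at 5.86 RPKM in B1 and 19.0 in B2, between the groups. Its transcript seq3 carried most of the level, at 229 RPKM in S1, 59.6 in S2, 1.21 in F1 and 0 in F2. The transcript seq1 stood at 51.5 RPKM in S1, 19.3 in S2, 1.53 in F1 and 0.0794 in F2.

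The component comp235490_c0 was the most abundant of those that fell and ranked 2 among all tested. It went from 10650 RPKM in S1 and 9478 in S2 to 6095 in F1 and 5371 in F2. The groups did not overlap and the libraries of each were close, but the change was small, with a seawater mean 1.76-fold higher. Limma gave a log2 fold change of -0.81 (SE 0.20, adjusted p = 0.0467), and over the 13 alternatives that kept all 4 libraries the adjusted p ran from 0.000861 to 0.163, with the call lost in 10. Without F1 or F2 it was also lost (limma adjusted p = 0.321 and 0.522). B1, at 5666 RPKM, lay between F1 and F2, and B2, at 3912 RPKM, below both. Its 12 transcripts did not all share the difference. The leading transcript, seq9, was lower in fresh water, at 5281 RPKM in S1, 4585 in S2, 2769 in F1 and 2031 in F2. The transcript seq1 overlapped between the groups, at 166 RPKM in S1, 212 in S2, 155 in F1 and 231 in F2. The test of unequal change over the 12 did not pass (diffSplice adjusted p = 0.448).

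**Figure D3:**
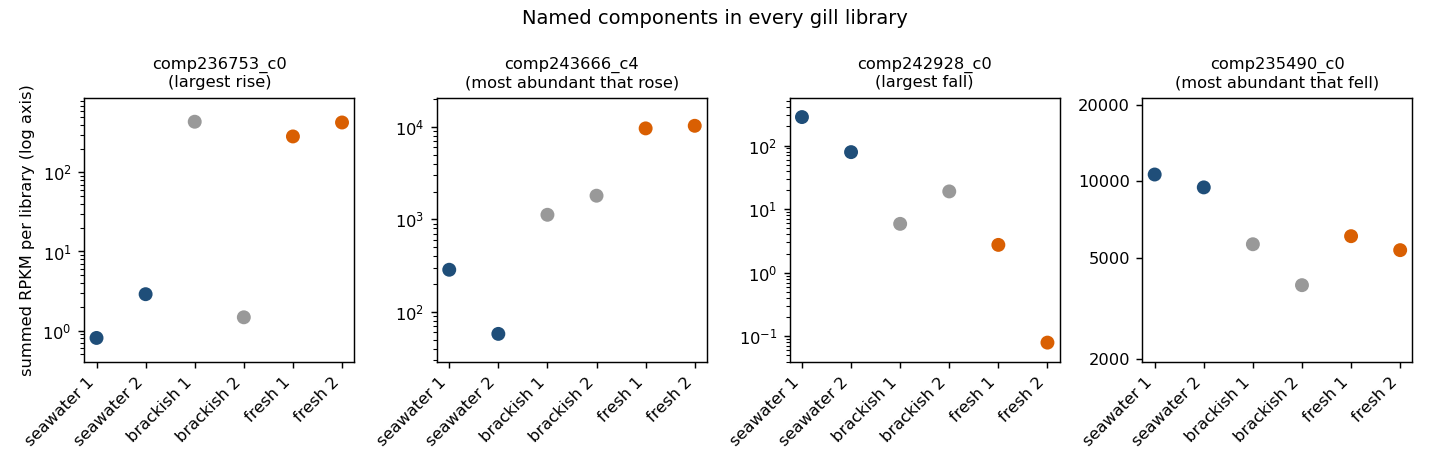
Summed RPKM on a log y axis in each of the 6 libraries, 1 point per library, for the 4 named components. In comp236753_c0 B1 (438 RPKM) stands with fresh water and B2 (1.47 RPKM) with seawater, while in comp243666_c4 both brackish water libraries (1121 and 1802 RPKM) lie between the groups.

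The most abundant called components were as follows. The 10 most abundant rises, comp243666_c4 among them, had log2 fold changes from 1.35 to 6.33 and means from 252 to 5054 RPKM, and 3 of them passed with TMM factors as well. The 10 most abundant falls, with means from 1170 to 7898 RPKM, had log2 fold changes from -4.27 to -0.81, and all 10 passed with TMM factors, which lower the log2 fold change of every abundant component by about the same amount. Of the 14 falls at 1000 RPKM or more, 7 had a log2 fold change between -1.5 and -0.5. All 137 components of this bin had a median of -0.69 and quartiles of -0.96 and 0.03. Changes of that size were thus not particular to the called falls. In the same bin both fresh water values lay below both seawater values in 80 of 137 components and above them in 6, against 17.2% and 58.3% of all tested. Among the 20 most abundant components 3 rose, 3 fell and 8 had overlapping groups on RPKM. Of all 8074 tested, 24% rose, 3.89% fell and 1977 components had overlapping groups. With TMM factors 1 of the 20 was called higher and 5 lower. These 20 took up 19.6% of the reads of S1, 19.0% of S2, 19.8% of F1 and 13.3% of F2.

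Together the components that rose, those of low and of high level, took up a sizeable part of the fresh water libraries. They held 2.41% of the reads of S1, 2.73% of S2, 16.0% of F1 and 16.4% of F2. Without comp243666_c4 the shares of F1 and F2 were 15.2% and 15.5%. Other rises of high level were not taken out. The rise ranked 3 by level, with a longest transcript of 7704 bases, stood at 7865 RPKM in F1 and 4735 in F2. How the shares divide between the 23 rises of at least 100 RPKM and the other rises was not tested. The 314 that fell made up 9.94% of S1, 8.42% of S2, 2.66% of F1 and 2.12% of F2. Components not called accounted for 84.6% of S1, 85.1% of S2, 72.6% of F1 and 70.7% of F2. The called sets were chosen on these libraries, so the shares describe them and are no test.

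**Figure D4:**
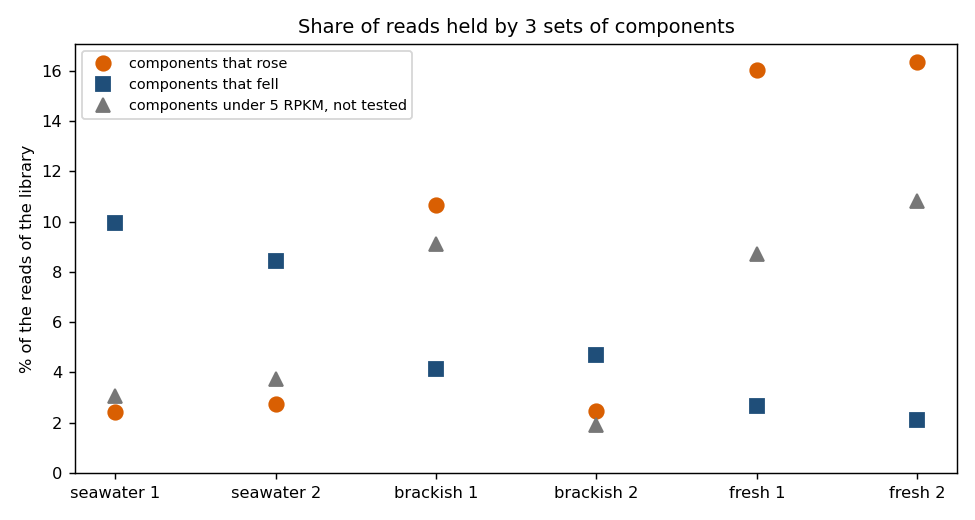
Share of the reads of each library, in percent, held by the components that rose, those that fell and those under 5 RPKM that were not tested. The rises hold 16.0% of F1, 16.4% of F2, 10.7% of B1 and 2.45% of B2.

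In brackish water, which had no part in choosing them, the components that rose were at different levels in the 2 libraries. Their median was 2.03 RPKM in S1, 2.83 in S2, 13.5 in F1, 18.5 in F2, 14.9 in B1 and 2.14 in B2. B1 was above B2 in 1908 of the 1939, or 98.4%, against 86.8% of all 8074. It was more than 8-fold above on the RPKM + 1 scale in 12.6% of the rises against 4.66% of all tested. The components that fell stood at medians of 51.7 RPKM in S1, 46.6 in S2, 9.76 in F1, 6.57 in F2, 18.8 in B1 and 21.8 in B2, and B1 was above B2 in 47.5% of them. B1 was also the broader of the pair. Reads fell on 188113 components in B1 and 49877 in B2, or 143525 and 40702 at 16500257 reads. In B2 11 components held 50% of the reads, against 249 in B1. The median of all 8074 components was 14.6 RPKM in B1 and 3.95 in B2, so low levels in B2 were not particular to the rises. The part of breadth in the rises, and of this concentration of reads in the levels of B2, was not tested.

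**Figure D5:**
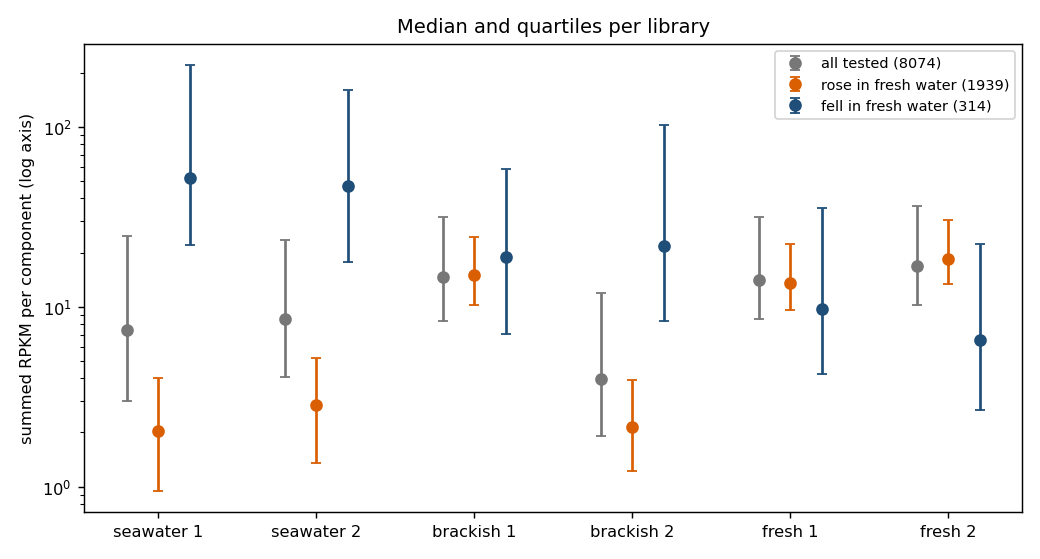
Median (point) and quartiles (bars) of the summed RPKM of all tested components, of those that rose and of those that fell, on a log y axis, in each library. The rises have medians of 14.9 RPKM in B1 and 2.14 in B2, while the falls have 18.8 and 21.8.

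Over all 8074 components the seawater libraries differed by more than 2-fold in 29.5% and by more than 8-fold in 5.90%, and the fresh water libraries in 4.97% and 0.458%. One component whose seawater libraries were far apart, ranked 13 by level, stood at 12966 RPKM in S1, 193 in S2, 1021 in F1 and 943 in F2. The component ranked 6 stood at 12393 RPKM in S1, 6142 in S2, 4928 in F1 and 0.649 in F2, and with a log2 fold change of -6.60 it did not pass (limma adjusted p = 0.253).

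In their assembly the called components were described by length and number of transcripts. The longest transcript had a median of 1648 bases among the rises, 1112 among the falls and 1688 among all tested. Of the rises 64.0% and of the falls 62.1% consisted of 1 transcript, against 58.0% of all. Components of 5 or more transcripts made up 5.21% of the rises, 3.82% of the falls and 8.15% of all. These are descriptions of the sets, with no test.

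The transcripts of a component could move apart while its sum did not pass. Unequal change was tested by diffSplice, which asks whether the transcripts of a component differ in their log2 fold change, in 2977 components with at least 2 transcripts of at least 1 RPKM. It passed in 129, or 4.33%. The test pools the spread over all transcripts of a component. These come from the same libraries and are not independent replicates. Its p-values can therefore be too small, more so for components of many transcripts. Of these 129, 31 had risen as a sum, 7 had fallen and 91 were not called as a sum. The leading transcript differed between fresh water and seawater in 63 of the 129 and in 25.6% of all 2977. In 75 of the 129 at least 1 transcript was higher in both fresh water libraries and another lower, against 7.12% of all 2977. The test selects components whose transcripts move apart, so both shares follow from the selection in part and are descriptions. The count rested on the libraries, with 185 without S1, 349 without S2, 0 without F1 (284 at an unadjusted p under 0.05) and 1 without F2. With the library number as a replicate block it was 61. With 0.1 added to RPKM in place of 1 it was 160, and with 5 added it was 136. Of these, 110 and 91 were among the 129. The log2(RPKM + 1) scale understates the change of low transcripts, so transcripts of unequal level can differ on it at an equal fold change. The counting may have divided reads among transcripts with common sequence, and the part of that in these calls was not tested.

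The component with the lowest p for transcript use had 5 transcripts and rose as a sum (diffSplice adjusted p = 1.39e-05). Its transcript of 2091 bases stood at 0.145 RPKM in S1, 0.202 in S2, 63.2 in F1 and 54.5 in F2. It was the highest of the 5 in fresh water and the lowest in seawater. Another, of 1071 bases, stood at 1.02 RPKM in S1, 1.21 in S2, 21.7 in F1 and 25.3 in F2. One of 1323 bases differed far less, at 5.82 RPKM in S1, 6.71 in S2, 11.5 in F1 and 13.8 in F2. The transcript of 2091 bases was at 46.8 RPKM in B1 and at 0.0271 in B2. A component of 7 transcripts that was not called as a sum held transcripts of opposite direction (diffSplice adjusted p = 0.000568). Its leading transcript of 2981 bases was at 103 RPKM in S1, 85.0 in S2, 64.5 in F1 and 64.9 in F2, while one of 3335 bases was at 12.2 RPKM in S1, 14.0 in S2, 23.5 in F1 and 31.6 in F2. For neither of these transcripts did the groups overlap.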

How the data were processed

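The deposited tables hold, per the file headers, an RPKM value by the authors for each library and transcript of a de novo assembly, and transcript lengths. They also hold an estimated count per group, which the authors averaged over its 2 libraries. No assembler, aligner or counting tool is named in the sources used here. In the 4 libraries compared, RPKM times length gave whole reads, within 0.1 read, for 100% of non-zero values once divided by the smallest step of the library. Group means of these reads matched 100% of the deposited counts of 55575 transcripts within 0.001. The authors' p, FDR and fold columns were not used.

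RPKM was summed per component. Components with a mean of at least 5 were tested with limma 3.58.1 (R 4.3.3) with a trend on log2(summed RPKM + 1), the 4 libraries alone, group as the only term, 2 residual degrees of freedom and p-values adjusted by Benjamini-Hochberg over all 8074. Fold changes on this scale understate the change of low components. Transcript use was tested with diffSplice in limma. Scripts were tested on simulated data. Groups came from the labels. Alternatives were other scalings, pseudocounts, filters, summaries, a replicate block, each library left out, edgeR 4.0.16 and DESeq2 1.42.0 on the summed reads. In each direction the named components are the largest change and the most abundant among called components whose groups did not overlap and whose sign was kept with TMM factors. The component ranks and transcript examples without names were chosen after their values were seen. Members, tests and lists were chosen with earlier results of these data known. Lists of ion transport genes and of cell type markers could not be applied without gene names.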

Additional observations from a re-analysis of the deposited data

Results flagged for a closer look

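Reads outside the tested components were more frequent in fresh water. Components under a mean of 5 RPKM, which the comparison reported here left out, held 8.7% of the reads of F1 and 10.8% of those of F2, above S1 at 3.05% and S2 at 3.73%. They held 9.10% of B1 and 1.89% of B2.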

How the results depend on the processing

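In the 16 alternatives that tested every called component, all 314 falls kept their sign. Of the 1939 rises 1930 did so under quantile normalization, 1937 by edgeR, 1936 by DESeq2 and all in the other 13. This is no sign of stability, since the groups of every called component lay apart, which fixes the sign under most of these alternatives. Against 1939 higher and 314 lower, TMM factors gave 1095 and 731, quantile normalization 764 and 823, and DESeq2 1525 and 1702. By edgeR 1348 components passed, 825 higher and 523 lower. A filter at 1 RPKM gave 9845 calls, 9180 higher and 665 lower, and one at 10 RPKM 660, 543 higher and 117 lower. Over all 258437 components with a read limma called 0, thus 0 higher and 0 lower, with 65489 at an unadjusted p under 0.05. The fit of all 6 libraries gave 3 calls, 1 higher and 2 lower. Leaving out a library gave 106 to 5660 calls, 106 to 4370 of them higher and 0 to 1290 lower. Transcript use, 129 components, went to 20 at a minimum of 5 RPKM per transcript and to 0 to 349 with a library left out. The causes were not tested.

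Libraries of seawater and fresh water with the same number deviated together (r = 0.339 over components), but with 2 pairs the numbers are not known to pair animals. With the number as a replicate block 2743 components were called, 2375 higher and 368 lower, and transcript use changed in 61. Among the named components the block ended the call of comp235490_c0. Under 10 reads lay behind 425 of the tested components in S1, 325 in S2, 13 in F1 and 87 in F2, an order that does not follow depth. It follows in part from the filter, which 2495 components passed through fresh water only and 378 through seawater only.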

Other observations

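Some components carry the same assembly number and differ only in the index after it. Among the tested components 401 such numbers held at least 2, covering 822 components. In 52 of them at least 2 components were called, all higher in 36 numbers, all lower in 13 and in both directions in 3. Whether they share sequence was not tested.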
